A study of Mus musculus with 100 samples.

Results

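Interferon-stimulated genes were examined in whole knee joints of MRL/MpJ, C57BL/6 and STR/ort mice, strains that the submitters rank as not susceptible, moderately susceptible and highly susceptible to post-traumatic osteoarthritis. The members were 40 genes chosen by name, and all 40 were present among the 17310 genes of the count table. The right knee of 10-week-old mice received a single compressive load of 10 to 12 N that ruptures the anterior cruciate ligament. Joints were taken before injury (0-day, 12 libraries) and, as injured and uninjured contralateral joints, at 1-day (30 libraries), 1-week (28 libraries) and 2-weeks (30 libraries) after it. The 21 groups of strain, time and joint held 4 or 5 libraries each, 100 in all, and poly(A)+ RNA was sequenced. Whole joints with small amounts of soft tissue were used, so cartilage, bone, marrow, synovium and muscle were measured together. The 0-day mice were not the mice sampled later. The 0-day, 1-day and 1-week libraries were 1 experimental batch (70 libraries) and the 2-weeks libraries another (30 libraries), so at 2-weeks the batch cannot be told apart from the time.

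Type I interferons bind a receptor on nearly all nucleated cells and activate JAK kinases, which phosphorylate Stat2. It joins Irf9 in a complex that enters the nucleus and binds interferon-stimulated response elements, short repeats of GAAA, near the start of its target genes. Interferon-gamma acts on a different element. The induced genes encode sensors of viral nucleic acid, antiviral enzymes, membrane proteins that hinder virus entry or release, a ubiquitin-like modifier, large GTPases, and the transcription factors Irf7 and Irf9 that feed the pathway. Macrophages, plasmacytoid dendritic cells and synovial fibroblasts are known to make or answer to interferon in joints.

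The members were spread over 13 chromosomes of the mouse genome (RefSeq annotation, GRCm38.p6). Chromosome 5 carried Oasl2 (chr5:114896926-114912245), Oasl1 (chr5:114923143-114937911), Oas2 (chr5:120730333-120749886), Oas3 (chr5:120753098-120777684) and Oas1a (chr5:120896256-120907544). Isg15 was at chr4:156199424-156200818, Ifitm1 at chr7:140967429-140969827, Isg20 at chr7:78913396-78920396 and Ifi44 at chr3:151730922-151749910. Rsad2 (chr12:26442743-26456452) and Cmpk2 (chr12:26469117-26479837) were neighbours.

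RefSeq promoter windows, 250 bases before to 50 bases after a transcript start, were available for 31 members. The core of the interferon-stimulated response element, read here as GAAA, any 2 bases and GAAA again, was found on either strand in the windows of 16 of the 31 genes (51.6%), against 3.99% of 27025 genes with a window. The letters TTCNNNGAA, the palindromic core of the interferon-gamma activated site, were found in 8 of 31 members (25.8%) and in 9.55% of all genes. The 2 motifs were searched separately on both strands, and overlapping matches were counted. A match is a description of the letters only. The windows below are shown because Isg15, Oas3, Ifit3, Oasl2 and Ifitm1 were among the members with the largest differences between strains. They are read 5′ to 3′ on the gene's strand from the C57BL/6J reference, with each match to the response element core, or to its reverse complement, in capitals. The sequences of the other strains were not analysed here. Isg15 (chr4:156200769-156201068, minus strand) held 3 overlapping matches whose first bases lay 78, 72 and 66 bases before the start. Oas3 (chr5:120777610-120777909, minus strand) held 1 match 75 bases before the start. Ifit3 (chr19:34583279-34583578, plus strand) held 2 matches on the opposite strand, 156 and 122 bases before the start. Oasl2 (chr5:114896684-114896983, plus strand) and Ifitm1 (chr7:140967826-140968125, plus strand) held none in these windows, nor did the 3 windows of Isg20.
Isg15: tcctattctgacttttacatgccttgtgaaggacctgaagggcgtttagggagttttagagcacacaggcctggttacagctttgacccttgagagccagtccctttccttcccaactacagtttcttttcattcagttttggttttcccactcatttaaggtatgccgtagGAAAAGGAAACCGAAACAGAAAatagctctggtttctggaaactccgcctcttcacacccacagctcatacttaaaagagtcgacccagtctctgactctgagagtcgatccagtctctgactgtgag
Oas3: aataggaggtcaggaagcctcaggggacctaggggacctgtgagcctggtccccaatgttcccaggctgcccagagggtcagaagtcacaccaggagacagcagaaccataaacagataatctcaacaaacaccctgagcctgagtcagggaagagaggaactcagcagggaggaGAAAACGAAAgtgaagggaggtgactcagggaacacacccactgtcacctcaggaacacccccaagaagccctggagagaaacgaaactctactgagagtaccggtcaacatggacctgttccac
Ifit3: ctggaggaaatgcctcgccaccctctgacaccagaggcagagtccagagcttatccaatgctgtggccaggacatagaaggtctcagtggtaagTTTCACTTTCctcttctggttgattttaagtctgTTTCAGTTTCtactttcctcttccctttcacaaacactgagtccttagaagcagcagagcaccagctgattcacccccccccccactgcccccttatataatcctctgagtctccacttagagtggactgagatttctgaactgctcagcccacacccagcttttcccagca
Oasl2: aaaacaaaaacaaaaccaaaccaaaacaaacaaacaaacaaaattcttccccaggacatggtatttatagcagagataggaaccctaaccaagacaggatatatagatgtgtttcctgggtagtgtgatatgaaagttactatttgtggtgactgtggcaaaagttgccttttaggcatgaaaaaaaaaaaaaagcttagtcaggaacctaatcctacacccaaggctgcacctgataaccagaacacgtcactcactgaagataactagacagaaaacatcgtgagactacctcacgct
Ifitm1: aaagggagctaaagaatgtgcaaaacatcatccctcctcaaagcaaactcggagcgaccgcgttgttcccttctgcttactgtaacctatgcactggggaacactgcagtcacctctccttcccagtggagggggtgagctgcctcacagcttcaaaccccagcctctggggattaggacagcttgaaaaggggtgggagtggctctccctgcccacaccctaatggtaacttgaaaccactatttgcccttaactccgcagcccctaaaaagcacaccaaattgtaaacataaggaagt

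Libraries held 6182016 to 20986027 counts (median 10582591.5), and no pair of libraries in a group was identical. Marker genes of muscle, cartilage, bone, synovium and blood cells were detected in each group. In total, 6 STR/ort libraries stood apart from the rest of their groups in the members: both joints numbered 2 and 3 at 1-day and both joints of animal 1 at 2-weeks, whose totals of 8291716 to 13316883 were not low. Counts of called members that they change, the spread within STR/ort groups and the correlations between members are also given without them, and so is each named gene whose call they decided. Levels are CPM, a gene's count scaled by the total and the TMM factor of its library, and the level of the whole set in a library is the mean of log2 CPM over the 40 members. A gene was called when edgeR's quasi-likelihood test gave a Benjamini-Hochberg adjusted p below 0.05 over 17310 genes and a fold above 1.5. Except at 2-weeks the labels do not name the animals, so the p-values measure the spread between these libraries.

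The baseline level of the set was lowest in MRL/MpJ and highest in C57BL/6. At 0-day the mean log2 CPM over the members was 3.86 ± 0.11 in MRL/MpJ, 4.73 ± 0.15 in C57BL/6 and 4.47 ± 0.12 in STR/ort (SD, n = 4 each). The C57BL/6 libraries lay above the MRL/MpJ libraries without overlap in 7 of 7 conditions of time and joint, with a difference of group means of 0.70 to 1.07. STR/ort varied more. Its mean was above that of MRL/MpJ in 6 of 7 conditions, with no overlap in 1 of them, and below that of C57BL/6 in all 7, with no overlap in 3. The libraries of all conditions covered 3.53 to 4.48 in MRL/MpJ, 4.51 to 5.21 in C57BL/6 and 2.73 to 5.13 in STR/ort, or 3.60 to 4.75 without the libraries that stood apart.

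**Figure D1:**
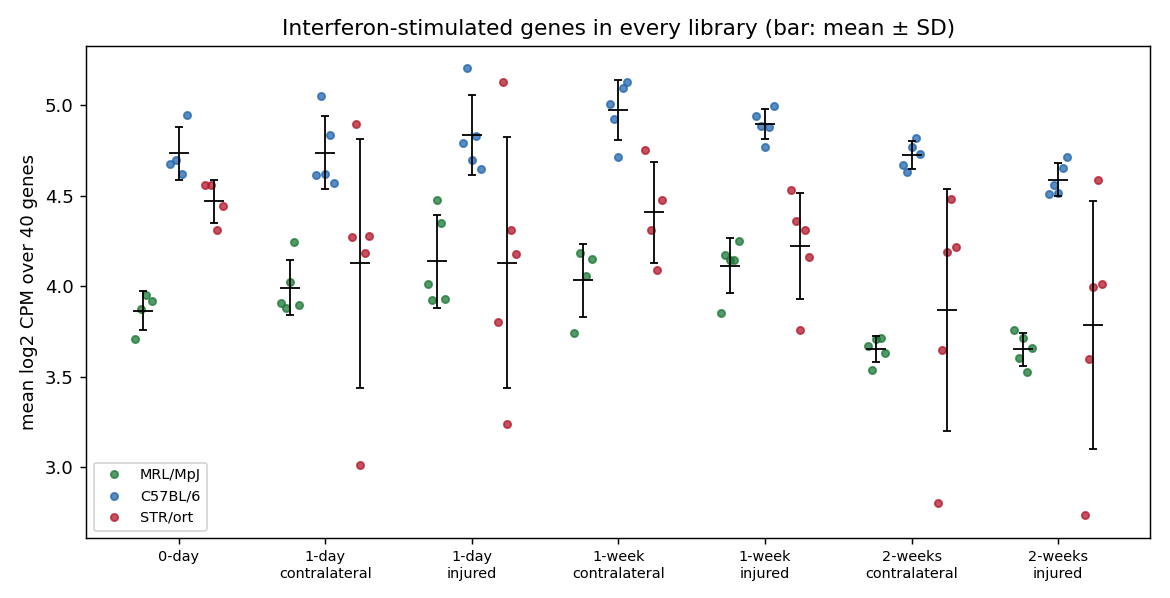
Mean log2 CPM over the 40 interferon-stimulated genes (vertical axis) in each of the 100 libraries, by strain, time and joint, with points for libraries and bars for group means ± SD. C57BL/6 libraries lie between 4.51 and 5.21, above every MRL/MpJ library (3.53 to 4.48), and STR/ort libraries run from 2.73 to 5.13.

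To compare the strains before injury, the 12 joints taken at 0-day were tested pairwise. In C57BL/6 relative to MRL/MpJ, 26 of 40 members were higher and 0 lower, where 15.9% of all genes were called (9.64% higher, 6.26% lower). The median log2 difference of the members was 0.79, against 0.01 over all genes. In STR/ort relative to MRL/MpJ, 19 members were higher and 1 lower, where 14.8% of all genes were called (8.34% higher, 6.44% lower), with a member median of 0.53. In STR/ort relative to C57BL/6, 2 were higher and 10 lower, where 13.8% of all genes were called (7.82% higher, 5.99% lower), with a member median of -0.40. The 3 pairs share libraries, so their counts are not separate lines of evidence. With 2 unwanted factors estimated from 25 housekeeping genes (RUVg), C57BL/6 against MRL/MpJ gave 6 higher and 0 lower, where 291 of the 17310 genes were called, and STR/ort against C57BL/6 gave 2 higher and 5 lower where 680 genes were called (3 and 4 with 1 factor, where 1494 were).

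The oligoadenylate synthetase family, enzymes that make the activator of RNase L on binding double-stranded RNA together with their relatives, held the largest of these differences. Oasl2, an oligoadenylate synthetase-like member, had 3.99, 3.60, 3.96 and 4.66 CPM in the 0-day MRL/MpJ libraries. It had 31.0, 34.9, 32.1 and 43.6 CPM in C57BL/6 and 15.1, 15.8, 14.8 and 17.4 CPM in STR/ort. The strains did not overlap, with STR/ort between the others. The log2 difference was 3.18 ± 0.14 (SE) for C57BL/6 against MRL/MpJ (adjusted p = 5.4e-12), 1.97 ± 0.15 for STR/ort against MRL/MpJ (adjusted p = 1.2e-08) and -1.20 ± 0.11 for STR/ort against C57BL/6 (adjusted p = 1.6e-07). Of the other family members, Oas1a was higher than in MRL/MpJ by 2.33 ± 0.22 in C57BL/6 and 2.12 ± 0.23 in STR/ort, and Oas2 by 2.16 ± 0.20 and 1.42 ± 0.21. Oas3 was lower in STR/ort than in C57BL/6 by a log2 difference of -0.99 ± 0.14.

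Isg15 is a ubiquitin-like protein that is joined to other proteins during the interferon response. At 0-day it measured 14.2, 14.5, 13.6 and 14.8 CPM in MRL/MpJ. It measured 40.6, 48.2, 51.0 and 59.6 CPM in C57BL/6, and 29.8, 31.9, 26.2 and 39.1 CPM in STR/ort. The order of the strains was that of Oasl2, again without overlap. Ifit3, which binds viral RNA in a complex with other Ifit proteins, was higher than in MRL/MpJ by 2.41 ± 0.24 in C57BL/6 and by 2.15 ± 0.25 in STR/ort. Rtp4, a transporter-like protein induced by interferon, was higher by 2.03 ± 0.23 and 1.61 ± 0.24.

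A few members took another order. Ifitm1, a membrane protein that hinders virus entry, had 5.49, 8.60, 7.23 and 8.10 CPM in MRL/MpJ at 0-day. It had 16.0, 9.81, 9.68 and 9.72 CPM in C57BL/6 and 22.2, 21.4, 23.9 and 26.6 CPM in STR/ort. STR/ort was the highest strain for this gene, by 1.70 ± 0.17 over MRL/MpJ and 1.02 ± 0.15 over C57BL/6. Ifi44, an interferon-induced cytoplasmic protein, had 7.89, 7.32, 6.72 and 9.83 CPM in MRL/MpJ. It had 6.16, 5.95, 4.38 and 9.03 CPM in C57BL/6 and 22.4, 24.8, 20.2 and 24.5 CPM in STR/ort. Again STR/ort stood alone, 1.81 ± 0.16 above C57BL/6, while MRL/MpJ and C57BL/6 overlapped. Isg20, an exonuclease that degrades RNA, had 139, 170, 134 and 142 CPM in MRL/MpJ, above 94.8, 95.3, 117 and 110 CPM in C57BL/6 and 80.4, 78.2, 52.0 and 69.5 CPM in STR/ort. It was the only member called lower in STR/ort than in MRL/MpJ at 0-day (log2 difference -1.06 ± 0.12). In STR/ort against C57BL/6, the other largest decreases were in Cmpk2, a mitochondrial nucleotide kinase (-1.0 ± 0.10), Rsad2, the antiviral enzyme viperin (-0.82 ± 0.09), and Zbp1, a sensor of left-handed nucleic acid (-0.74 ± 0.16). In total, 10 members were called in none of the 3 pairs at 0-day: Irf1, Stat2, Ddx58, Dhx58, Ifit2, Samd9l, Ifitm2, Herc6, Igtp and Gbp3.

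Cell markers also differed between the strains at 0-day. Summed over 8 macrophage and monocyte markers, libraries had 450 to 501 CPM in MRL/MpJ, 639 to 682 CPM in C57BL/6 and 356 to 459 CPM in STR/ort. The 4 B cell markers summed to 104 to 125, 167 to 233 and 139 to 197 CPM, and the 5 T cell markers to 55.2 to 65.6, 28.5 to 34.5 and 15.2 to 21.4 CPM, in the same order of strains. The 5 fast muscle markers summed to 44827 to 54439 CPM in MRL/MpJ, 20526 to 32099 CPM in C57BL/6 and 44230 to 48844 CPM in STR/ort. The 5 synovium and fibroblast markers summed to 6630 to 8087, 11523 to 16183 and 10313 to 12251 CPM. The 5 cartilage markers were all higher in C57BL/6 than in MRL/MpJ, and the 5 erythroid markers were all lower in STR/ort than in MRL/MpJ, with sums of 1763 to 1941 and 3933 to 4808 CPM. Of the 5 plasmacytoid dendritic cell markers 2 were higher in C57BL/6 than in MRL/MpJ. None of these lists had a member at 0 in all libraries of a 0-day group, and their part in the strain differences was not tested. In whole joints, fewer cells of a type and less RNA per cell cannot be told apart.

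Over all conditions, with each of the 7 conditions weighted equally, C57BL/6 exceeded MRL/MpJ in 24 members and was below it in 1, where 14.1% of all genes were called (8.16% higher, 5.96% lower), with a member median of 0.76. STR/ort exceeded MRL/MpJ in 13 and was below it in 3, where 22.1% of all genes were called (12.3% higher, 9.82% lower), with a member median of 0.28. STR/ort exceeded C57BL/6 in 3 and was below it in 18, where 12.6% of all genes were called (6.63% higher, 5.93% lower), with a member median of -0.54. Both joints of an animal entered this fit as separate libraries, so its p-values are too small. With 0-day and contralateral joints only, which leaves 1 joint per animal, 27, 17 and 21 members were called, where 2414, 3443 and 2103 of the 17310 genes were. Within the first batch the counts were 26, 14 and 20, where 2608, 4192 and 2398 of all genes were called. Within the second they were 26, 12 and 23, where 2128, 3101 and 2008 were. Without the 6 STR/ort libraries that stood apart they were 25, 15 and 21, where 2438, 3765 and 2158 were. With 1 or 2 factors estimated by RUVg, STR/ort against MRL/MpJ gave 7 higher and 3 lower, where 3766 (1 factor) and 3781 (2 factors) of the 17310 genes were called.

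By role, all 5 members of the oligoadenylate synthetase family were higher in C57BL/6 than in MRL/MpJ over all conditions, and 4 of 5 were lower in STR/ort than in C57BL/6. Oasl2 had a lowest, median and highest library of 2.42, 4.69 and 12.5 CPM in MRL/MpJ, 25, 33.8 and 57.9 CPM in C57BL/6, and 1.43, 10.6 and 28.2 CPM in STR/ort. C57BL/6 lay above both other strains without overlap in 7 of 7 conditions, and STR/ort lay above MRL/MpJ without overlap in 2. The log2 difference of C57BL/6 from MRL/MpJ was 2.90 ± 0.14 (adjusted p = 2.9e-34). Next in size were Ifit3 (2.26 ± 0.14), Oas1a (2.11 ± 0.20), Isg15 (2.09 ± 0.11) and Oas2 (2.08 ± 0.18). Ifit3, Oas1a and the Ifitm genes have close relatives in the genome, and how reads shared between relatives were counted is not given in the sources used here, so their levels are less certain.

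In ISG15 conjugation, 2 of 3 members were higher in C57BL/6 than in MRL/MpJ, and all 3 were lower in STR/ort than in C57BL/6. Isg15 itself had a lowest, median and highest library of 5.43, 14.1 and 24.0 CPM in MRL/MpJ, 27.5, 50.3 and 108 CPM in C57BL/6, and 1.34, 15.5 and 39.1 CPM in STR/ort. It showed the largest decrease in STR/ort against C57BL/6 (-1.88 ± 0.11, adjusted p = 4.2e-28), without overlap in 7 of 7 conditions. Against MRL/MpJ, its log2 difference in STR/ort was 1.15 ± 0.13 at 0-day and 0.21 ± 0.12 over all conditions, and that of Oas3 was 1.03 ± 0.17 and 0.08 ± 0.16. Both calls held at 0-day and not over all conditions, and the change between them was not tested. Usp18, the protease that removes Isg15, was 0.95 ± 0.09 higher in C57BL/6 than in MRL/MpJ. Herc6, which joins Isg15 to its targets in mice, had a difference of 0.33 ± 0.04, below the 1.5-fold limit, and its decrease in STR/ort against C57BL/6 (-0.61 ± 0.05) was not called within the first batch, without replicate 2 or with 0-day and contralateral joints only (-0.58, -0.57 and -0.58).

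Among membrane restriction factors, 1 of 4 was higher in C57BL/6 than in MRL/MpJ and 2 of 4 were higher in STR/ort than in MRL/MpJ. Ifitm1 ranged around a median of 8.19 CPM in MRL/MpJ (5.49 to 13.8), 12.9 CPM in C57BL/6 (5.39 to 27.5) and 28.9 CPM in STR/ort (12.4 to 52.1). STR/ort was above MRL/MpJ without overlap in 7 of 7 conditions and above C57BL/6 in 6 of 7, with log2 differences of 1.70 ± 0.08 (adjusted p = 4.1e-36) and 1.19 ± 0.07 (adjusted p = 3.6e-27). Ifitm2 was higher in STR/ort than in MRL/MpJ (0.71 ± 0.04), though not called within the second batch (0.57). Bst2, which tethers budding virus to the cell, was instead highest in C57BL/6, by 0.91 ± 0.08 over MRL/MpJ, and was lower in STR/ort than in C57BL/6 (-0.64 ± 0.08), though not called within the first batch (-0.55).

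Other antiviral effectors were the only role with more members lower than higher in STR/ort against MRL/MpJ, 3 of 5 lower and 0 higher. Isg20 had a median of 132 CPM in MRL/MpJ (59.5 to 170), 95.0 CPM in C57BL/6 (57 to 166) and 69.5 CPM in STR/ort (31.3 to 146). STR/ort was below MRL/MpJ without overlap in 6 of 7 conditions (-0.90 ± 0.05, adjusted p = 4.3e-27). Cmpk2 (-0.85 ± 0.06) and Rsad2 (-0.65 ± 0.06) were the others. Rsad2 was not called within the first batch (-0.53), without the libraries that stood apart (-0.57) or with 0-day and contralateral joints only (-0.48). Both were also lower in STR/ort than in C57BL/6, by -1.31 ± 0.05 and -1.33 ± 0.06. Mx2, named for a family of antiviral GTPases and listed as a transcribed pseudogene in the RefSeq annotation, was lower in STR/ort than in C57BL/6 (-0.94 ± 0.12), and Samd9l, a restrictor of translation, was called in no strain pair.

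Of the transcription factors, Irf7 and Irf9 were higher in C57BL/6 than in MRL/MpJ (1.37 ± 0.11 and 0.86 ± 0.08), and Irf7 was lower in STR/ort than in C57BL/6 (-1.08 ± 0.11). Irf1 and Stat2 were not called. Of the sensors, the RNA helicase Ifih1 and Zbp1 were higher in C57BL/6 than in MRL/MpJ (0.88 ± 0.06 and 1.40 ± 0.16). Dhx58, a helicase that tunes RNA sensing, was lower in STR/ort than in C57BL/6 (-0.75 ± 0.07), as was Ifih1 (-0.70 ± 0.06). Ddx58, which encodes the sensor RIG-I, reached 0.56 ± 0.05 in C57BL/6 against MRL/MpJ and missed the 1.5-fold limit. Ifit1, which binds RNA with a viral cap structure, was higher in C57BL/6 than in MRL/MpJ (1.86 ± 0.13), while Ifit2 was called in no pair. In the ADP-ribosyltransferase complex, Parp9 (0.68 ± 0.05) and Parp14 (0.96 ± 0.08) were higher in C57BL/6 than in MRL/MpJ, and Dtx3l, the ubiquitin ligase partner of Parp9, was not called (0.55 ± 0.05).

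The interferon-inducible GTPases, which act on the vacuoles of intracellular pathogens, were split. Irgm1 (0.77 ± 0.09) and Gbp2 (0.84 ± 0.14) were higher in C57BL/6 than in MRL/MpJ, Gbp2 was also higher in STR/ort than in MRL/MpJ (0.78 ± 0.14), and Igtp was higher in STR/ort than in C57BL/6 (0.64 ± 0.09) while Irgm1 was lower (-0.63 ± 0.09). The calls of Gbp2 in STR/ort and of Igtp were lost without the libraries that stood apart (0.52 and 0.57), without replicate 2 (0.47 and 0.49) and with RUVg, Igtp also within the second batch (0.57), and that of Irgm1 in STR/ort without replicate 3 (-0.57). Of the other induced genes, Ifi27, Ifi35, Rtp4 and the apoptosis factor Xaf1 were higher than in MRL/MpJ in both other strains, by 0.75 ± 0.06, 0.90 ± 0.04, 1.73 ± 0.16 and 1.11 ± 0.09 in C57BL/6 and by 0.63 ± 0.06, 0.89 ± 0.04, 0.92 ± 0.17 and 0.66 ± 0.10 in STR/ort. In STR/ort the calls of Xaf1 and Ifi27 were lost with 1 RUVg factor (0.37 and 0.54), with 2 (0.32 and 0.52) and within the second batch (0.56 and 0.47). Ifi44 was the only member called lower in C57BL/6 than in MRL/MpJ (-0.68 ± 0.19, adjusted p = 0.0012). Its median was 9.83 CPM in MRL/MpJ (3.02 to 26.1), 5.37 CPM in C57BL/6 (2.24 to 11.2) and 14.8 CPM in STR/ort (0 to 41.6), and C57BL/6 was below MRL/MpJ without overlap in 1 of 7 conditions. Its difference between STR/ort and C57BL/6 was 1.19 ± 0.18. Within the second batch neither difference of Ifi44 was called (-0.25, adjusted p = 0.64, and 0.73, adjusted p = 0.11).

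**Figure D2:**
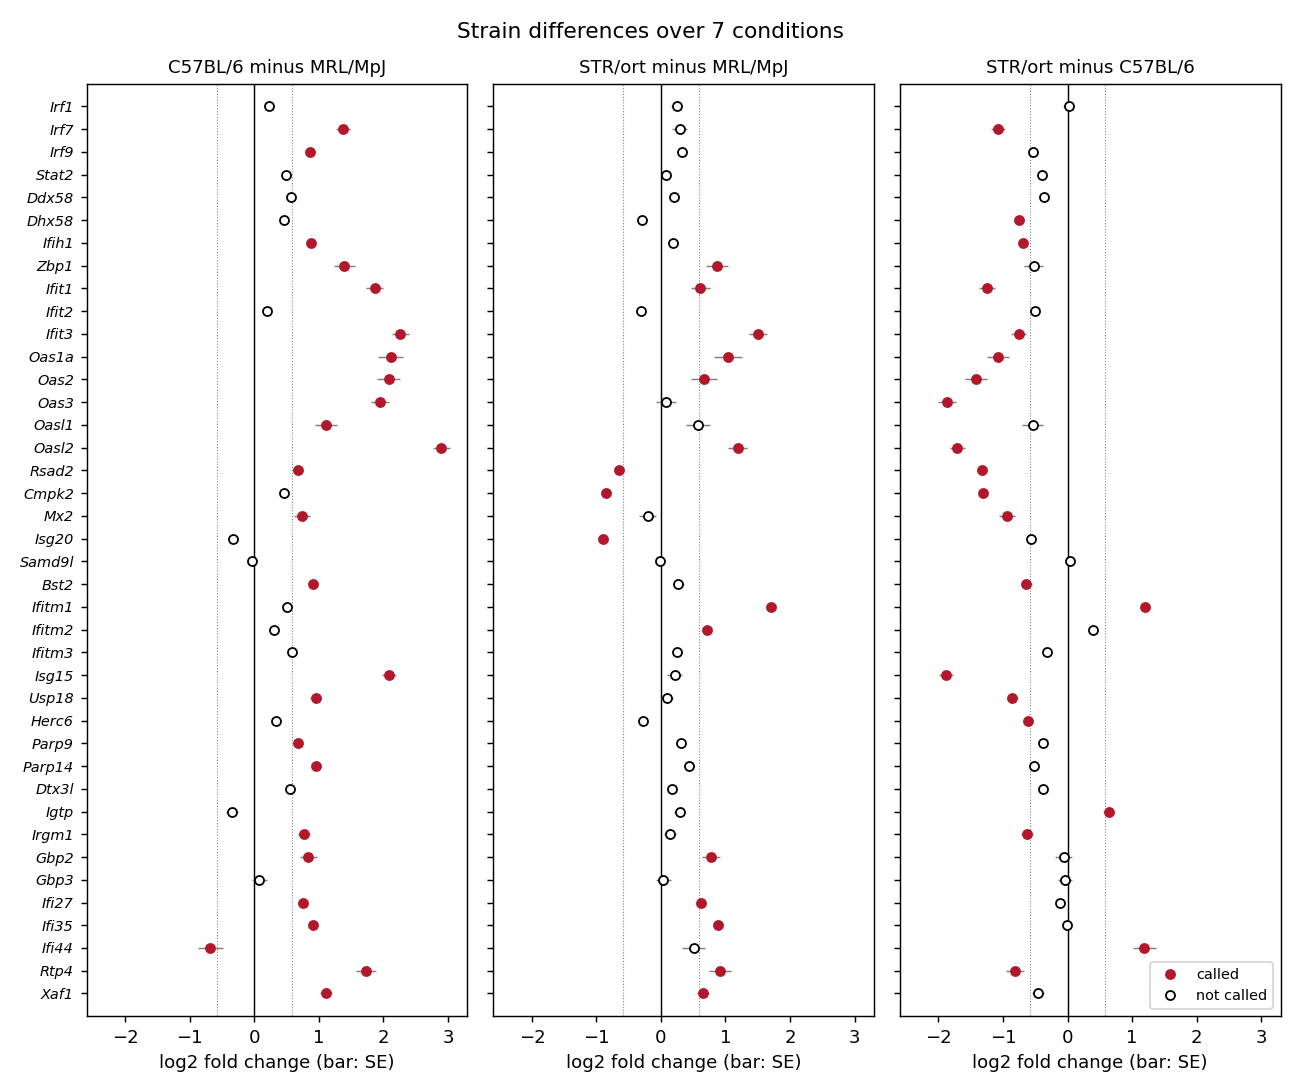
Log2 differences between strains (horizontal axis) for the 40 members by role, over all conditions, with points for estimates and bars for standard errors. Most points for C57BL/6 against MRL/MpJ lie to the right of 0, up to 2.90 for Oasl2, and Ifitm1 (1.70 and 1.19) and Isg20 (-0.90) stand out in the STR/ort comparisons.

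Genes upstream of the members and beside them were read from lists of 36 pathway genes. Over all conditions 6 were higher and 1 lower in C57BL/6 than in MRL/MpJ, where 8.16% and 5.96% of all genes were. In STR/ort 4 were higher and 0 lower than in MRL/MpJ, where 12.3% and 9.82% of all genes were, and 2 were higher and 1 lower than in C57BL/6, where 6.63% and 5.93% were. None of the 6 interferon receptor genes was among them. The lower gene in C57BL/6 against MRL/MpJ was the chemokine Cxcl11 (-0.84), and Tlr9 (1.15), Cxcl10 (1.05) and Ciita (0.80) were among the higher ones. Socs1 (0.84) and Socs3 (1.04), feedback inhibitors of cytokine signalling, were higher in STR/ort than in MRL/MpJ. Irf4, a regulator of lymphocytes and macrophages, was higher than in MRL/MpJ in C57BL/6 (1.26) and in STR/ort (0.85), and Nlrc5, an activator of class I antigen presentation genes, likewise (0.98 and 0.70). At 0-day 10 of these genes were called higher and 0 lower in C57BL/6 than in MRL/MpJ, among them the chemokine Cxcl10 (1.92) and the nucleic acid receptors Tlr9 (1.14) and Tlr3 (0.87), where 9.64% of all genes were called higher. In STR/ort 4 of 36 were higher than in MRL/MpJ, where 8.34% of all genes were, and 1 was higher and 6 lower than in C57BL/6, where 7.82% and 5.99% of all genes were.

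To find the effect of injury, each strain's injured joints were compared with contralateral joints at each time. By edgeR, no member passed both limits of the call in any of the 9 comparisons. Over these 360 values of 40 members in 9 comparisons, log2 differences ran from -0.68 to 0.76. Of them 37 had an unadjusted p below 0.05 and 15 an adjusted p below 0.05, each under 1.5-fold. The share of all genes below these p limits alone was not counted, here or below. The median over the members was 0.14, 0.10 and -0.04 in MRL/MpJ, C57BL/6 and STR/ort at 1-day, 0.06, -0.06 and -0.15 at 1-week and -0.01, -0.16 and -0.10 at 2-weeks, while that over all genes lay between -0.03 and 0.01. The share of all genes called in MRL/MpJ, C57BL/6 and STR/ort was 2.02%, 5.6% and 4.31% at 1-day, 3.13%, 5.82% and 9.21% at 1-week, and 1.16%, 2.95% and 4.66% at 2-weeks. In the same order of strains, members with an unadjusted p below 0.05 numbered 2, 5 and 1 at 1-day, 3, 2 and 11 at 1-week, and 1, 5 and 7 at 2-weeks. DESeq2 called 0 members in 8 of these comparisons and 1 in STR/ort at 1-week, Oas3 (-0.64, adjusted p = 0.0327), where 1564 of the 17310 genes were called. With RUVg, 4 members (1 factor, Oas3, Rsad2, Ifitm1 and Isg15) and 2 (2 factors, Oas3 and Samd9l) were called lower in STR/ort at 1-week. There 1771 and 1589 of the 17310 genes were called in either direction. In C57BL/6 at 1-day 1 member was called with 2 factors (Ifit3, 0.82), where 1276 genes were. Without the libraries that stood apart, 0 members were called in STR/ort at 1-day and at 2-weeks, for injury or for its interaction with strain. A member without a call is not shown to be unchanged: the 95% interval lay within 1.5-fold either way for 16 to 20 members at 1-day, 20 to 36 at 1-week and 22 to 26 at 2-weeks. These intervals are from fits without a block, also at 2-weeks, where the labels pair the knees by animal, so they include differences between animals.

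Of the 15 values below the adjusted p limit alone, most were decreases of a few genes. In C57BL/6 at 1-day, Rsad2 (-0.47 ± 0.17, adjusted p = 0.0437), Cmpk2 (-0.42 ± 0.14) and Isg20 (-0.40 ± 0.12) were lower and Ifitm2 (0.38 ± 0.10, adjusted p = 0.00581) was higher in injured joints. Without injured replicate 2, Rsad2 (-0.70) and Cmpk2 (-0.59) were called. In C57BL/6 at 1-week Ifitm2 was again the member below the limit (0.34 ± 0.10, adjusted p = 0.0289). In STR/ort at 1-day only Ifitm3, a membrane protein that blocks virus entry from endosomes, was below the adjusted limit (0.43 ± 0.13, adjusted p = 0.0301), and without contralateral replicate 2 Zbp1 was called (1.52). At 2-weeks the STR/ort values below the limit were Rsad2 (-0.43 ± 0.15, adjusted p = 0.0493) and Ifitm3 (0.35 ± 0.12, adjusted p = 0.0479).

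At 1-week in STR/ort, 7 members were below the adjusted limit and all were lower in injured joints. The share of all genes below that limit alone was not counted. With the 1.5-fold limit as well, 0 members and 9.21% of all genes were called. Samd9l had 105, 98.2, 101, 120 and 111 CPM in injured joints and 171, 127, 141 and 171 CPM in contralateral joints (-0.52 ± 0.09, adjusted p = 5.75e-05). Rsad2 had 63.7, 106, 104, 111 and 91.3 CPM against 117, 134, 181 and 132 CPM (-0.58 ± 0.13, adjusted p = 0.00189). Neither gene overlapped between the joints, which was not counted over all genes. The others were Isg20 (-0.54 ± 0.17), Cmpk2 (-0.43 ± 0.13), Ifih1 (-0.41 ± 0.11), Igtp (-0.36 ± 0.12) and Herc6 (-0.29 ± 0.09), and the median over all members was -0.15. With the replicate number as a block, 3 members were called in place of 0: Oas3 (-0.68), Oasl1 (-0.62) and Ifitm1 (-0.62). In that fit 1807 of the 17310 genes were called. Without any 1 of injured replicates 1 to 4 or contralateral replicates 1 to 4, 1 to 3 members were called. In the same joints the 5 natural killer cell markers summed to 6.27 to 13.4 CPM in injured and 11.6 to 17.7 CPM in contralateral joints, the 5 fast muscle markers to 8684 to 19084 and 16735 to 33471 CPM, and the 8 neutrophil markers to 8108 to 11572 and 13240 to 17733 CPM. Of the 5 plasmacytoid dendritic cell markers 2 were called lower, with Siglech at 8.88 to 13.9 CPM against 16.6 to 18.1 CPM, but the list summed to 333 to 367 and 311 to 375 CPM. Bone markers (3 of 5) and erythroid markers (1 of 5) were also called lower. Synovium and fibroblast markers (2 of 5) and cartilage markers (1 of 5) were called higher. The part of these lists in the lower values was not tested.

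**Figure D3:**
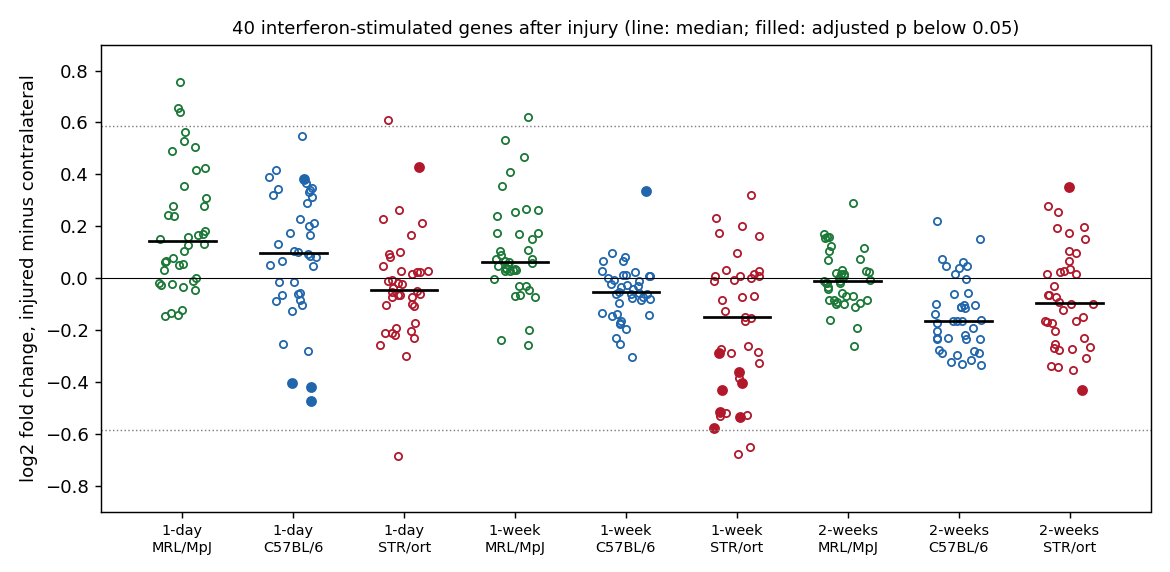
Log2 difference between injured and contralateral joints (vertical axis) for each of the 40 members in the 9 comparisons of time and strain (horizontal axis), with a line at the median, filled points at an adjusted p below 0.05 and dotted lines at 1.5-fold. The values run from -0.68 to 0.76, and no member passed both an adjusted p of 0.05 and a fold of 1.5.

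Whether the response to injury differed between strains was tested as an interaction, also with 0 members called in 9 comparisons by edgeR and by DESeq2. The share of all genes called for C57BL/6 against MRL/MpJ, STR/ort against MRL/MpJ and STR/ort against C57BL/6 was 0.318%, 0.162% and 2.66% at 1-day, 0%, 0.884% and 0.491% at 1-week, and 0%, 0.451% and 0.0462% at 2-weeks. Members with an unadjusted p below 0.05 numbered 0, 0 and 2 at 1-day, 0, 6 and 4 at 1-week, and 0, 0 and 0 at 2-weeks. Samd9l at 1-week had an adjusted p of 0.0315 for STR/ort against MRL/MpJ, with a log2 difference of -0.51 ± 0.12, and without STR/ort contralateral replicate 2 it was called (-0.59). Outside the members, Socs3 rose in injured joints of all strains at 1-day (1.67 in MRL/MpJ, 1.25 in C57BL/6, 1.41 in STR/ort) and at 1-week (0.76, 0.76 and 1.00), and in STR/ort at 2-weeks (1.14). Socs1 rose in C57BL/6 at 1-day (0.89) and in STR/ort at 1-week (0.86) and 2-weeks (0.64). The receptor gene Ifnlr1 was lower in injured joints of C57BL/6 at 1-day (-0.59) and of STR/ort at 1-week (-0.74). Tlr3 was called higher in C57BL/6 and Tlr9 lower in STR/ort at 1-week. Of the 36 pathway genes, 2 were higher and 1 lower in C57BL/6 at 1-day, where 5.6% of all genes were called. In STR/ort at 1-week 2 were higher and 2 lower, where 9.21% were.

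Contralateral joints were compared with the 0-day joints of other mice within the first batch. In STR/ort at 1-day, 3 members were higher and 6 lower, where 9.92% of all genes were called (2.58% higher, 7.35% lower). Oasl1, an oligoadenylate synthetase-like protein without the enzyme activity, had 4.08, 6.40, 3.45 and 4.54 CPM at 0-day and 2.41, 1.70, 0, 1.74 and 2.80 CPM at 1-day (-1.37 ± 0.42, adjusted p = 0.00994). Isg15 had 13.8, 16.5, 4.76, 15.5 and 14.6 CPM at 1-day (-1.28 ± 0.27, adjusted p = 0.000173), below all 4 of its 0-day STR/ort libraries. Oas2 (-1.23), Oas3 (-1.02), Mx2 (-0.97) and Ifit1 (-0.90) were the others that were lower. Gbp2 (1.11 ± 0.41), Gbp3 (0.87) and Irf1 (0.64) were higher. With each replicate number left out in turn, Isg15 was called in all 5 fits, while Oas2 and Irf1 lost their call in 4, Oas3, Ifit1 and Gbp3 in 3, Oasl1 and Gbp2 in 2 and Mx2 in 1. Without the libraries that stood apart, 4 were lower (Oas2, -1.35, Oas3, -0.98, Mx2, -0.88, and Isg15, -1.12) and 0 higher, where 1641 of the 17310 genes were called. Without replicate 2 alone Gbp2 had a difference of 0.05. Without replicate 4 of all groups 2 were called and without replicate 3 there were 5, and with RUVg the counts were 0 higher and 10 lower, where 224 (1 factor) and 199 (2 factors) of the 17310 genes were called. The 5 fast muscle markers, all called lower, summed to 44230 to 48844 CPM at 0-day and 18951 to 32042 CPM at 1-day. Of 8 macrophage and monocyte markers 3 were called higher, with sums of 356 to 459 and 548 to 657 CPM, as were 2 of 5 interferon-gamma induced genes. Those 2, Ciita and Nlrc5, were at 19.2 and 54.0 CPM in replicate 2. The other 1-day contralateral joints had 4.70 to 8.59 and 6.35 to 15.2 CPM. The part of these lists was not tested.

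In C57BL/6 at 1-week, 2 members were higher in contralateral joints than at 0-day and 0 lower, where 5.72% of all genes were called (0.884% higher, 4.84% lower). Isg15 had 87.9, 62.9, 70.1, 108 and 87.0 CPM, above all 0-day C57BL/6 libraries (0.70 ± 0.24, adjusted p = 0.0378), and Rsad2 was higher by 0.67 ± 0.15 (adjusted p = 0.00132). DESeq2 called 1 of them. Isg15 lost its call in 4 of 5 fits that each left out a replicate number (highest adjusted p = 0.184), in 1 of which, without replicate 1, Ifitm1 was called instead (0.68), while Rsad2 was called in all 5. All 5 cartilage, all 5 bone and all 5 synovium and fibroblast markers were called lower in the same comparison, and 2 of 5 T cell markers higher. The part of these lists was not tested. By edgeR, 0 members were called in STR/ort at 1-week (13.6% of all genes called), in MRL/MpJ at 1-day (0.0924%) and 1-week (0%), and in C57BL/6 at 1-day (0.0693%). Members with an unadjusted p below 0.05 numbered 3, 1, 0 and 1 there, and DESeq2 also called 0. In STR/ort at 1-week, 3 members were called lower with RUVg (Ifit1, Cmpk2 and Mx2), where 975 (1 factor) and 995 (2 factors) of the 17310 genes were called. Without the libraries that stood apart 1 member was called lower (Ifit3, -0.63), where 2360 genes were called. Without replicate 1 Isg20 (0.72) and Ifitm2 (0.71) were called higher, and without replicate 2 Isg20 was (0.64). Over all 30 comparisons, 4 members were called in none: Stat2 ranged from -0.47 to 0.54 on the log2 scale, Ddx58 from -0.36 to 0.56, Ifit2 from -0.50 to 0.30 and Samd9l from -0.52 to 0.15.

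Pooled over groups, the members varied more between the STR/ort libraries of 1 group than between those of the other strains, but not at 0-day, where the SD of the set mean was 0.12 in STR/ort, 0.11 in MRL/MpJ and 0.15 in C57BL/6. The median within-group SD of the members' log2 CPM was 0.20 in MRL/MpJ, 0.19 in C57BL/6 and 0.52 in STR/ort, where members ranged from 0.17 to 1.77. Without the libraries that stood apart, the STR/ort median was 0.28 over 27 libraries, and 37.2% of all genes varied more than that. The median over all genes was 0.19, 0.19 and 0.21, and with all libraries 10.8% of all genes varied more than the members' median in STR/ort, against 45.8% in MRL/MpJ and 49.7% in C57BL/6. The members moved together. After group means were subtracted, a single principal component held 79.2% of their variance over 100 libraries and 60.7% over the 94 libraries without those that stood apart. The median correlation between pairs of members was 0.66 and 0.52. The correlation of each member with the mean of the others was highest for Oas3 (0.96), Irf9 (0.95) and Irf7 (0.94). It was lowest for Isg20 (-0.18), Ifitm1 (-0.04) and Ifitm2 (0.13), and Rsad2 had 0.51. Without the libraries that stood apart the highest were Irf7 (0.92), Oas3 (0.89) and Ifi44 (0.88), with Irf9 at 0.85, and the lowest Isg20 (-0.14), Ifitm1 (0.02) and Ifitm2 (0.27). These points share libraries and their depth, and the values are descriptive. The component and the correlations were not computed for other genes, so they are not shown to be particular to the members.

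At 2-weeks the labels name the animal of each joint, and the level of the set was alike in the 2 knees of an STR/ort animal while it differed between animals. Mean log2 CPM over the members was 2.73 in the injured and 2.80 in the contralateral joint of animal 1, 3.60 and 3.65 in animal 2, and 4.00 and 4.19 in animal 3. It was 4.59 and 4.48 in animal 4, and 4.01 and 4.22 in animal 5. The largest difference between the knees of an animal was 0.21, and the range between animals was 1.85 in injured and 1.68 in contralateral joints. In MRL/MpJ and C57BL/6 the animals covered 0.18 to 0.23, and the knees of an animal differed by up to 0.19 and 0.26. The injured knee was the lower in all 5 C57BL/6 animals, with differences of -0.16, -0.07, -0.26, -0.17 and -0.01, in 4 of 5 STR/ort animals and in 1 of 5 MRL/MpJ animals. At 1-day the STR/ort joints of the same number gave 3.80 and 4.27, 5.13 and 4.90, 3.24 and 3.01, 4.31 and 4.18, and 4.18 and 4.28, but there the labels do not say that a number marks an animal.

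**Figure D4:**
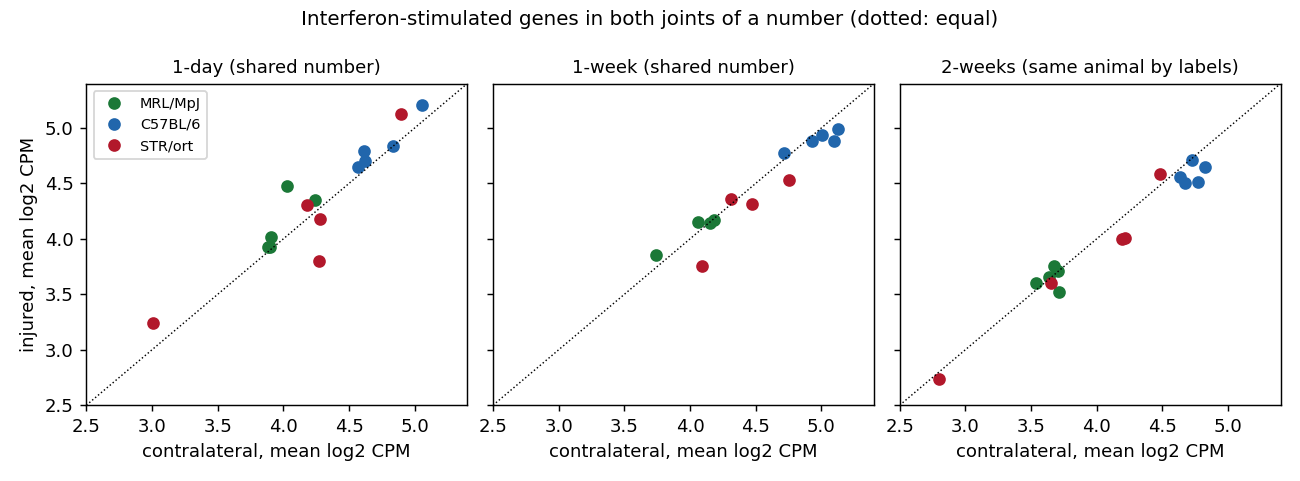
Mean log2 CPM over the members in the injured joint (vertical axis) against the contralateral joint (horizontal axis) of the same number, by strain and time, where only at 2-weeks the labels tie both joints to 1 animal. STR/ort animals at 2-weeks run from 2.73 to 4.59 in injured joints, with knees of 1 animal at most 0.21 apart.

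The STR/ort libraries that stood apart did so in most members at once. They were picked for the levels of the members, so the counts of members below restate that choice. How many of all genes did the same was not counted. The 1-day joints numbered 2 lay above all other libraries of their groups in 37 (injured) and 31 (contralateral) of 40 members. Gbp2 was at 123 and 114 CPM there, Gbp3 at 88.6 and 84.7 CPM, Igtp at 96.1 and 86.6 CPM, and Irf1, a transcription factor that answers to interferon-gamma, at 170 and 149 CPM. Outside the members, the interferon-gamma induced chemokine Cxcl9 was at 92.0 and 80.8 CPM. The 5 interferon-gamma induced chemokines and regulators summed to 183 and 164 CPM, against 28.8 to 43.0 and 19.7 to 40.3 CPM in the other libraries of these groups. The 5 natural killer cell markers summed to 20.2 and 20.4 CPM against 9.7 to 13.3 and 8.7 to 17.1 CPM, and the 5 cartilage markers to 4650 and 6377 CPM against 2940 to 3831 and 2952 to 4130 CPM. In the injured joint the macrophage, T cell and bone marker sums were the highest of their group and the endothelial and fast muscle sums the lowest, and in the contralateral joint the T cell, neutrophil and erythroid sums were the lowest. The part of these markers was not tested.

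The 1-day joints numbered 3 lay below all other libraries of their groups in 34 and 34 members, a count not made over all genes. Isg15 was at 4.97 and 4.76 CPM, Oas3 at 1.10 and 0.841 CPM, and Ifi44 at 2.48 and 0.187 CPM, and 3 members were at 0 in the contralateral joint. The B cell markers summed to 257 and 272 CPM in these joints, above the other libraries, and the interferon-gamma induced genes to 28.8 and 19.7 CPM, below them. The synovium sum was the lowest in the injured joint and the highest in the contralateral joint, where the macrophage (548 CPM) and natural killer cell (8.69 CPM) sums were the lowest, and the part of these lists was not tested. Both knees of animal 1 at 2-weeks lay below all others in 36 and 35 members, again without a count over all genes. Isg15 was at 1.34 and 1.76 CPM there, Oas3 at 1.87 and 2.23 CPM, and Ifi44 at 0.0893 and 0 CPM. The natural killer cell markers summed to 4.64 and 7.04 CPM in that animal and the interferon-gamma induced genes to 19.3 and 18.1 CPM, below the other animals. The erythroid (1662 against 971 to 1234 CPM) and endothelial sums were the highest in its injured knee, and the cartilage, bone, synovium, endothelial and B cell sums the lowest in its contralateral knee. Their part was not tested.

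**Figure D5:**
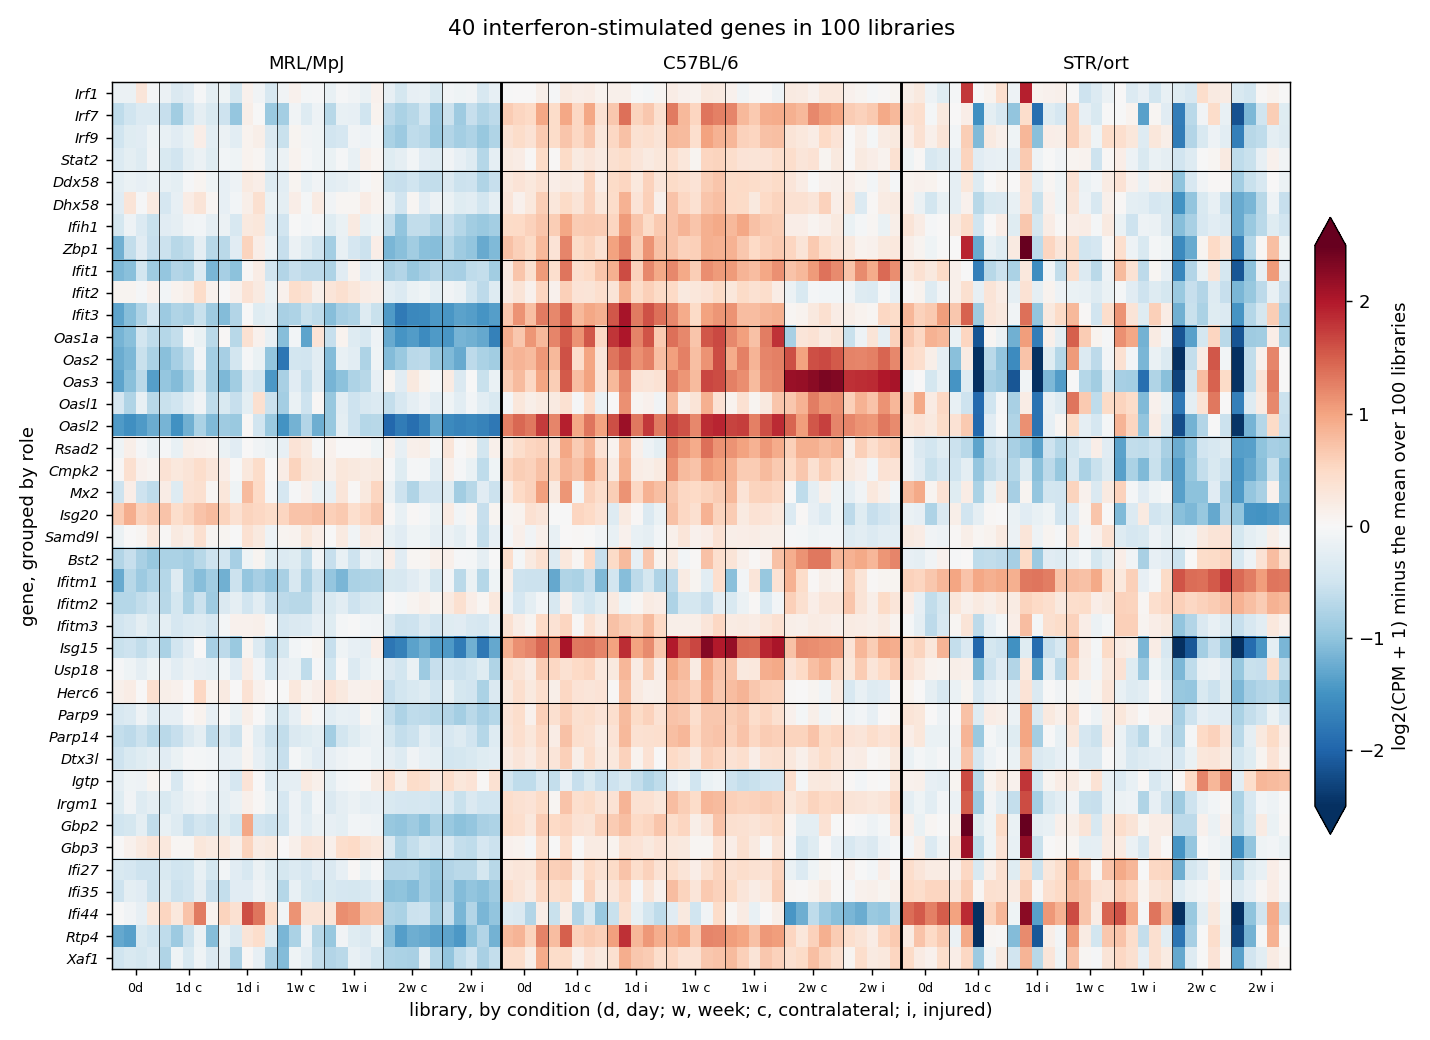
Log2(CPM + 1) of each member (rows, by role) minus its mean over all libraries, in the 100 libraries (columns) ordered by strain, time and joint, with red for higher, blue for lower and colours that stop at 2.5 in either direction. The 6 STR/ort libraries that stood apart appear as columns in which most members differ in 1 direction from the other libraries of their group.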

How the data were processed

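Libraries of mouse knee joints were mapped by the authors to mm10 with TopHat2 2.0.11 and counted per gene with featureCounts, per the labels and the submitters' processing notes, and the deposited table held raw counts for 100 libraries. Settings for reads shared between genes, and the number of RUVSeq factors the authors used, are not given in the sources used here. The genome mm10 is that of C57BL/6J, and how reads of the other strains aligned was not examined. Of 17313 table lines, 3 that repeated another line in name and all counts were dropped. The 17310 left were tested as genes, since a filter of 2 counts in 5 libraries removed 0. A spreadsheet had turned 24 gene names into dates. Totals were 6182016 to 20986027 counts per library.

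Groups came from the labels. Counts were scaled by TMM and tested with edgeR 4.0.16 (R 4.3.3) in quasi-likelihood fits for 0-day, for each later time (injury and its interaction with strain), for all libraries (strain over 7 conditions), and for the 70 libraries of the first batch (contralateral against 0-day). P-values were adjusted by Benjamini-Hochberg over 17310 genes, and a prior count of 2 entered log2 CPM. The members, their roles, the pathway and marker lists and the tests were chosen with earlier results of these data known, and support nothing by themselves. Named members were all 40 by role, with the largest called changes, up to 5 in each direction in a comparison, and values in every library for the largest called member. The genes of the 1-week STR/ort injury comparison and of the libraries that stood apart were named after their values were seen.

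Same-numbered joints were compared by the correlation of their deviations from group means over all genes. At 2-weeks the labels pair the joints by animal, and the block changed no count of called members there. At 1-week in STR/ort all 4 pairs had correlations above 0.1, so the blocked values are given beside that result. The other joints share only a number. Alternatives were RLE size factors, RUVg with 1 or 2 factors from 25 housekeeping genes (B2m, itself induced by interferon, among them), DESeq2 1.42.0, other count filters, the replicate block, each library or replicate left out, and single batches. Omission of the 6 STR/ort libraries that stood apart, and use of 0-day and contralateral joints only, were chosen after seeing the data. Promoter letters were read from RefSeq windows (GRCm38.p6) on both strands. The values of 1 pathway gene are not reported here.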

Additional observations from a re-analysis of the deposited data

Results flagged for a closer look

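In groups of 4 or 5 libraries, the set mean and 6 members (Oasl2, Ifi44, Ifitm1, Isg20, Isg15 and Oasl1) were searched for a library whose gap to its nearest neighbour exceeded Dixon's 95% limit. Of 147 sets of values 8 did so, and chance gives about 1 in 20. The set mean was low in MRL/MpJ injured replicate 1 at 1-week (3.85). Isg15 was high in C57BL/6 contralateral replicate 2 at 1-day (91.1 CPM) and low in C57BL/6 contralateral replicate 1 at 2-weeks (36.3 CPM). Oasl1 was far from the other libraries in C57BL/6 injured replicate 2 at 1-day (7.55 CPM), and Ifitm1 was high in C57BL/6 replicate 1 at 0-day (16.0 CPM). In the STR/ort contralateral joint numbered 3 at 1-day, Isg15 (4.76 CPM), Oasl1 (0 CPM) and Ifi44 (0.187 CPM) were all low. In that joint 3 members had no counts, and their level was not detectable at this depth.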

How the results depend on the processing

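Precision limits the injury comparisons: at 1-day the 95% interval lay within 1.5-fold for only 16 to 20 of 40 members. RLE size factors and other count filters moved none of the 30 counts of called members by over 1.5 times. With 1 and 2 RUVg factors STR/ort against C57BL/6 at 0-day gave 7 and 7, where 1494 and 680 of all genes were called. STR/ort against MRL/MpJ over all conditions gave 10 and 10, where 3766 and 3781 were. With 2 factors C57BL/6 against MRL/MpJ at 0-day gave 6, and 291 of all genes were called. The cause was not tested. STR/ort injury at 1-week gave 4 (RUVg with 1 factor), 2 (RUVg with 2 factors), 1 (DESeq2) and 3 (replicate block) in place of 0. In the same order 1771, 1589, 1564 and 1807 of all genes were called. C57BL/6 injury at 1-day gave 1 (Ifit3) with 2 RUVg factors, where 1276 genes were called. STR/ort contralateral joints against 0-day gave 3 and 3 (RUVg) and 1 (without the 6 libraries) at 1-week, where 975, 995 and 2360 of all genes were called. At 1-day they gave 4 (without the 6 libraries) in place of 9, where 1641 genes were called. DESeq2 gave 1 in place of 2 for C57BL/6 contralateral joints at 1-week.

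The replicate block, in joints that share only a number, gave 2 called members for injury in MRL/MpJ at 1-day (Zbp1 and Rtp4), 2 in STR/ort at 1-day (Zbp1 and Mx2), 2 for the response of STR/ort against C57BL/6 at 1-day (Ifit3 and Mx2) and 1 for injury in MRL/MpJ at 1-week (Oasl2), each in place of 0. In the same order 329, 752, 456 and 611 of the 17310 genes were called. The block moved no other count.

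With each library or replicate left out in turn, counts ran from 0 to 2 for injury in C57BL/6 at 1-day, 0 to 1 in STR/ort at 1-day and 0 to 3 in STR/ort at 1-week, and from 0 to 1 for the 1-week response of STR/ort against MRL/MpJ. For contralateral joints against 0-day they ran from 2 to 6 in STR/ort at 1-day, 1 to 2 in C57BL/6 at 1-week and 0 to 2 in STR/ort at 1-week. Between strains they ran from 25 to 27, 20 to 22 and 10 to 14 at 0-day and from 25 to 28, 13 to 18 and 20 to 23 over all conditions. The 147 values for named genes included 15 injury values and 1 response value that were below the adjusted limit without a call. Among the called values, 19 lost their call with 1 RUVg factor and 37 with 2, 3 with DESeq2 and 1 with RLE factors. None of the called values changed sign.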
